A study of Drosophila melanogaster with 4 samples.

Results

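The Bithorax complex of Drosophila melanogaster holds 3 Hox genes, Ubx, abd-A and Abd-B, in a row on chromosome arm 3R. They were examined here among the 4206 genes that could be placed on this arm. The members were chosen by name, and their surroundings were read in a fixed 1-Mb window of 3R around them (FlyBase release 5, positions counted from 1). The data are chromatin immunoprecipitation followed by sequencing (ChIP-seq) of histone H3 dimethylated at lysine 27 (H3K27me2). The chromatin came from head nuclei of mixed adult flies of the wild-type laboratory strain Oregon-R, with no treatment or mutant, and Ab24684 was the antibody used. Heads were collected with sieves, and no step that separates their cell types is named. There were 2 ChIP replicates and 2 inputs, paired by number in the labels. Enriched regions were deposited as 1 list per ChIP replicate and 1 over the whole series, and none for the inputs. Nothing in the labels ties the replicates to separate batches of flies, so their spread may be technical only. With 1 group of 2 ChIP samples no test between groups was possible, and every comparison here is a description of values.

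Ubx, abd-A and Abd-B encode homeodomain transcription factors that give the segments of the posterior thorax and the abdomen their identity. They lie along the chromosome in the order in which they act along the body, and they are textbook targets of Polycomb repression, which keeps them silent in front of their own domains. Polycomb repressive complex 2 places methyl groups on lysine 27 of histone H3. The trimethylated state is the one known for covering silenced Hox genes, and the dimethylated state profiled here is known as a widely spread form. Trimethylation and transcription were not measured in this series.

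No base of any of the 3 genes lay in an enriched region. Ubx was covered to 0% in replicate 1, 0% in replicate 2 and 0% in the series' list. The same 0% in each of the 3 lists was found for abd-A and for Abd-B. From the lower end of Ubx to the upper end of Abd-B the complex spans 315.614 kb, and none of it was listed as enriched in any list. The genes are 77.8 kb (Ubx), 22.8 kb (abd-A) and 45.025 kb (Abd-B) long, with 72.8 kb between Ubx and abd-A and 97.2 kb between abd-A and Abd-B. The spaces between the genes, which hold the cis-regulatory domains that drive them segment by segment, were thus as bare of calls as the genes themselves. Bare sequence here means sequence without a call, as alignable positions are not given in the lists.

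The missing cover formed 1 continuous block that was wider than the complex. In replicate 1 the block ran from 12450561 to 12839460 on 3R, a length of 388.9 kb. In replicate 2 it ran from 12450368 to 12838960, a length of 388.593 kb. The mean of the replicates was 388.7 kb ± 0.217 (SD, n = 2). In the series' list it ran from 12450647 to 12839016, a length of 388.37 kb. The block reached 31.7 kb beyond Ubx on the side of the centromere and 41.1 kb beyond Abd-B on the other side (series' list). Gene positions come from release 6 and were placed on release 5 by subtracting 4174278 bases. The called region nearest to any member, in any list, lay 31.7 kb from Ubx.

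**Figure D1:**
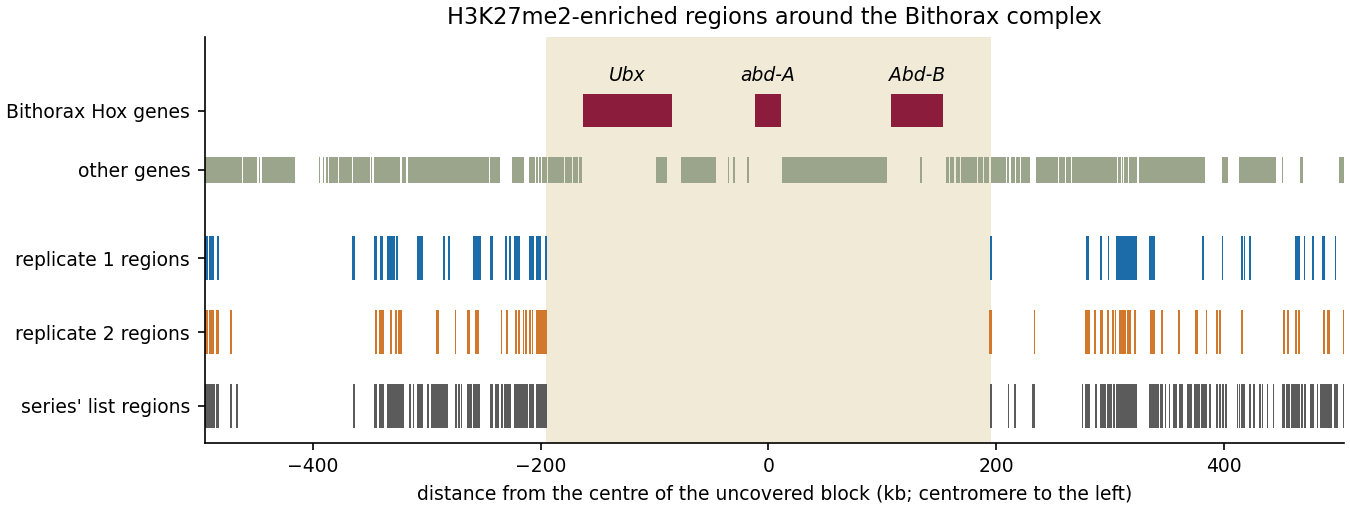
Enriched regions of the 3 lists in the 1-Mb window, drawn against the distance in kb from the centre of the uncovered block of the series' list (shaded), with the 3 Hox genes in red and all other placed genes in green. No region bar lies over the genes, and the edges of the bare block differ by at most 500 bp between the lists.

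Absence of cover is common among genes of 3R, most of which are short, and less common among genes as long as the 3 members. Of the 4206 placed genes, 2495 (59.3%) had no covered base in either replicate, 2186 (52%) had none in the series' list and 2162 (51.4%) had none in all 3 lists. Length made a difference to this share. Among the 216 genes at least as long as abd-A, 35 (16.2%) had no covered base in either replicate, 28 (13%) had none in the series' list and 27 (12.5%) had none in all 3 lists. In these long genes the median cover was 16.6% in replicate 1, 14.7% in replicate 2 and 48.2% in the series' list. Both sets of genes include the 3 members.

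The extent of the block was rarer than the state of the single genes. Spans as long as the stretch from Ubx to Abd-B were laid along the rest of 3R every 10 kb. Of these 2628 spans, 10 (0.381%) were free of cover in replicate 1, 19 (0.723%) in replicate 2 and 10 (0.381%) in the series' list. In each list all of these spans lay in the same place, the longest uncovered stretch of the arm. Neighbouring spans overlap, so their numbers describe extent and are not independent. The median span was covered to 20.3% in replicate 1, 19.9% in replicate 2 and 45.3% in the series' list.

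Among all uncovered stretches of 3R the block took rank 2 in each of the 3 lists. The arm held 2208 such stretches in replicate 1, 2251 in replicate 2 and 3295 in the series' list, with median lengths of 3498.5 bp, 3157 bp and 1228 bp. The longest stretch was 419 kb in replicate 1, 509 kb in replicate 2 and 418 kb in the series' list, and that one holds the Antennapedia complex, the other Hox cluster of the fly. The stretch of rank 3 was shorter, with 300.3 kb in replicate 1, 319 kb in replicate 2 and 298 kb in the series' list. Over 6 arms (X, 4 and both arms of chromosomes 2 and 3) the block ranked 2 in replicate 1, 5 in replicate 2 and 2 in the series' list.

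**Figure D2:**
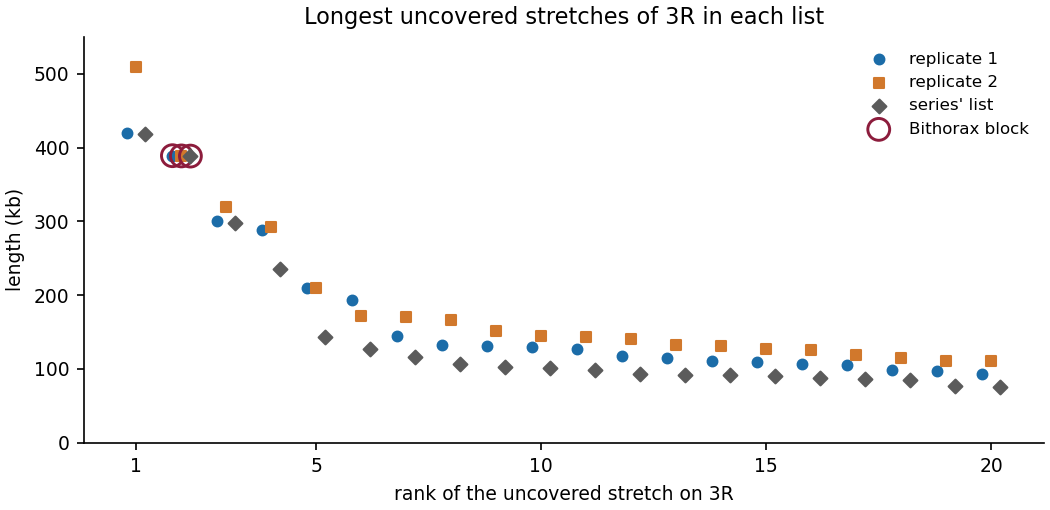
Length in kb of the 20 longest uncovered stretches of 3R in each list, by rank, with the Bithorax block circled. The block has rank 2 in each list, and its 3 lengths fall between 388 and 389 kb while the lengths at rank 1 run from 418 to 509 kb.

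The non-coding genes of the complex lie in the same uncovered span as the Hox genes, so their lack of cover is no further result. The block held 40 annotated genes in full, of which 26 are protein-coding and 14 non-coding, and no annotated gene lay across either of its edges (series' list). From Ubx to Abd-B there are 6 protein-coding and 11 non-coding genes. The non-coding ones include lncRNA:bxd (31.1 kb), transcribed from the regulatory region upstream of Ubx, and lncRNA:iab8 (92.1 kb) and lncRNA:iab4 (6.49 kb), transcribed between abd-A and Abd-B. They also include mir-iab-4 and mir-iab-8, microRNA genes annotated at the same 68 bp whose products act on Ubx and abd-A. Beside the Hox genes, the protein-coding genes in this stretch are Glut3, a sugar transporter gene, MSAmiP, and CG31275. Each of these was covered to 0% in all 3 lists, as were 51.4% of all genes of 3R.

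The block also took in genes with no part in the Hox cluster. On the side of Ubx 8 protein-coding genes fell inside it, among them Fas1, which encodes the cell adhesion protein fasciclin 1, CCT3, a subunit gene of the cytosolic chaperonin, and modSP, a serine protease gene of the Toll pathway. On the side of Abd-B 15 genes fell inside it, 12 of them protein-coding. These include Sf3a1, a splicing factor gene, Irc, an immune-regulated catalase gene, and EMC2A and EMC2B, subunit genes of a membrane complex of the endoplasmic reticulum. Each of these 23 genes had 0% cover in every list. This follows from their place inside the block and is no separate result about them. Of all genes of the arm, 51.4% had no covered base in all 3 lists.

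Both edges of the block lay at nearly the same positions in the replicates. The left edge differed by 193 bp between the replicates and by 279 bp over the 3 lists. The right edge differed by 500 bp in both cases. Apart from the block, 9 stretches over 100 kb in the series' list lie on 3R. For these, the larger of the differences between the replicates at their 2 edges had a median of 5266 bp and ran from 295 bp to 90826 bp. A difference no greater than that of the block was found for 2 of the 9. The series' list draws on the same samples as the replicates, so its edges are no further replicate.

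The region that ended the block on the side of Ubx was 2189 bp long with a score of 0.62 in replicate 1, 2305 bp with 0.58 in replicate 2 and 4876 bp with 0.49 in the series' list. The score is the authors' own value for a region, its scale is not stated, and it is compared here only within a list. By the placed annotation this edge falls between Ccdc114, which ends 208 bp outside the block of the series' list, and Fas1, which starts 0.313 kb inside it. Ccdc114, a coiled-coil domain gene by its name, was covered to 100% in replicate 1, 96.4% in replicate 2 and 100% in the series' list. Cover thus passed from nearly all of 1 gene to none of the next.

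On the side of Abd-B the region at the edge was short and stood alone. It measured 1457 bp with a score of 0.54 in replicate 1, 1989 bp with 0.59 in replicate 2 and 2070 bp with 0.43 in the series' list. After it came a further uncovered 82.5 kb in replicate 1, 36.7 kb in replicate 2 and 14.2 kb in the series' list. By the placed annotation it overlaps the lower end of Pxd, a peroxidase gene, which lies 1282 bp from the edge in the series' list. Of Pxd, 4.62% was covered in replicate 1, 4.86% in replicate 2 and 5.88% in the series' list. CG8907 ends 0.761 kb inside the block. This edge therefore rests on 1 region, which was called in each list. With regions under 2000 bp ignored, the block ended at 12923378 in replicate 1 and at 12936385 in replicate 2, and was 473 and 486 kb long. It was unchanged in the series' list, where the region is just longer than that.

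Next to the block, cover was high on the side of Ubx and low on the side of Abd-B. In the 50 kb next to the edge, the side of Ubx was covered to 44.8% in replicate 1, 43.8% in replicate 2 and 84.7% in the series' list. The same width on the side of Abd-B was covered to 2.91% in replicate 1, 7.17% in replicate 2 and 15.2% in the series' list. The values of the replicates did not overlap between the sides. Of 537 bins of 50 kb on the rest of 3R, 10.8% in replicate 1 and 11% in replicate 2 had more cover than the Ubx side. More cover than the Abd-B side was found in 88.8% of the bins in replicate 1 and 72.8% in replicate 2. Over 100 kb on each side, the mean cover was 31.4% ± 0.848 on the side of Ubx and 8.88% ± 2.98 on the side of Abd-B (SD of the replicates, n = 2).

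Over the whole window the flanks were covered close to the rest of the arm. The flank on the side of Ubx, 300.6 kb long, had a cover of 20.9% in replicate 1, against 18.6% in replicate 2 (mean 19.7% ± 1.62, SD, n = 2). The flank on the side of Abd-B, 311 kb long, had a cover of 16.0% in replicate 1, against 17.5% in replicate 2 (mean 16.8% ± 1.07, SD, n = 2). On the rest of 3R the covered share was 21.2% in replicate 1 against 20.2% in replicate 2 (mean 20.7% ± 0.654, SD, n = 2). In the series' list the values were 40.7% on the side of Ubx, 45.2% on the side of Abd-B and 44.0% on the rest of the arm. Both flanks together lay 2.48 percentage points below the rest of 3R in the replicates (a difference of -2.48). This difference depended on the width, since it was 0.199 in the other direction with 200 kb on each side.

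**Figure D3:**
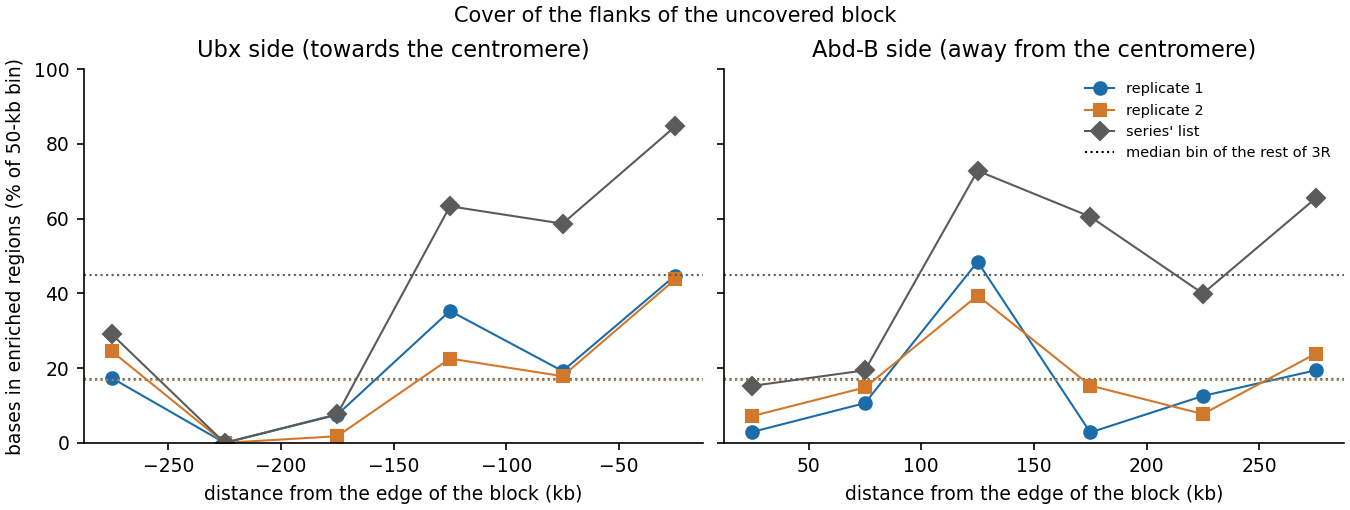
Percentage of each 50-kb bin that lay in enriched regions, against the distance in kb from the edge of the block, on the side of Ubx (left panel) and of Abd-B (right panel), for the replicates and the series' list. Dotted lines give the median bin of the rest of 3R in each list. The bin next to the block is far above that line on the side of Ubx (44.8% and 43.8% in the replicates) and below it on the side of Abd-B (2.91% and 7.17%).

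The window as a whole held 41 regions in replicate 1, 57 in replicate 2 and 88 in the series' list. They covered 11.2%, 11.0% and 26.3% of it. Of the 27 consecutive full 1-Mb windows along 3R, some of which overlap this one, none had less cover in replicate 1, and 1 had less in replicate 2 and in the series' list. The median of these windows was 19.5% in replicate 1, 20.2% in replicate 2 and 42.5% in the series' list. The window was thus among the least covered of its size on the arm in each list. This low rank largely restates the uncovered block, which fills a large part of the window. Outside the block, the flanks were covered close to the rest of the arm, as given above. The rank is therefore no separate result about the surroundings of the complex.

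Most genes next to the edge on the side of Ubx were covered, with exceptions. CG17560 was covered to 92.2% in replicate 1, 100% in replicate 2 and 100% in the series' list. CG14893 differed between the replicates, with 2.75% in replicate 1 and 94.6% in replicate 2, and was covered to 100% in the series' list. CG10340, a little farther out and named after its values were seen, was covered to 0% in each list. On the side of Abd-B, Adsl, which encodes adenylosuccinate lyase, was covered to 0% in each list. CG5225 had no cover in either replicate and a cover of 58.7% in the series' list. Except for CG10340, these are the genes nearest to each edge beyond Ccdc114 and Pxd.

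Most of the longest and highest-scoring regions of the flanks lay away from the block. On the side of Ubx the longest region of the series' list, 21280 bp from 12137451 to 12158730, begins before the window. It lies inside Sulf1, a sulfatase gene, and overlaps CG6901, CG17929 and CG17930, which are placed within the limits of Sulf1. Its cover was 77.0% in replicate 1, against 85.4% in replicate 2. The next longest ran from 12310009 to 12319674 over Cad89D, a cadherin gene, and had a cover of 93.5% in replicate 1, against 32.5% in replicate 2. A region from 12385365 to 12392066 over CG42342 scored 0.59, and one from 12421151 to 12428262 over CG14892 and CG10345 scored 0.51.

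On the side of Abd-B the longest region, 18487 bp from 12950049 to 12968535, started 111 kb from the block. It overlapped 14 genes, from the end of cher, which encodes the actin-binding protein filamin, to TwdlW, a gene of the Tweedle family of cuticle proteins. Replicate 1 covered 93.2% of it and replicate 2 covered 58.3%. The highest score on this side, 0.59, belonged to the region from 12979207 to 12986191 over CG5292 and Mur89F, a mucin-related gene. The region from 13105575 to 13111826 over CG31418 and CG31419 had 58.2% of its bases covered in replicate 1, against 43.7% in replicate 2. The region from 13120096 to 13124246, over no placed gene, scored 0.55 and had a cover of 41.0% in replicate 1, against 0% in replicate 2.

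A further long bare stretch lay in the flank on the side of Ubx. It measured 117.4 kb in replicate 1, 126 kb in replicate 2 and 100.9 kb in the series' list, where it ran from 12178918 to 12279850. In the series' list it held 18 genes, among them ss (spineless, 29.3 kb), a transcription factor gene known for the identity of antenna and leg parts and for the choice between photoreceptor subtypes. The gene ss was named after its values were seen, and its cover was 0% in each list. The bare stretch lay 171 kb from the block in replicate 1 and in the series' list, and 151 kb in replicate 2.

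The other Hox cluster of the fly showed the same state. The Antennapedia complex, which patterns the head and anterior thorax, is represented by 9 genes: lab, pb, zen, zen2, bcd, Dfd, Scr, ftz and Antp. All 9 had no covered base in any of the 3 lists, against 51.4% of all genes of 3R, and all lay in 1 stretch of 418 kb in the series' list. The stretch over Ubx, abd-A and Abd-B was shorter, with 388.37 kb. Together these 2 stretches hold all 96 genes of 3R that lie in an uncovered stretch at least as long as the Bithorax block.

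Other developmental transcription factor genes of 3R known as Polycomb targets were mostly uncovered as well, in shorter stretches. Of 19 such genes, 18 had no covered base in any list, against 51.4% of all genes of 3R. The 19 genes had a median length of 8.52 kb, against 1.78 kb for all genes of 3R. Among genes at least as long as abd-A the share was 12.5%, but these are longer, with a median of 38.9 kb. No share of genes matched in length to the 19 was computed. The exception was tll (tailless), a nuclear receptor gene of the head and tail, with 73.9% in replicate 1, 0% in replicate 2 and 100% in the series' list. The stretches around the 18 genes had a median of 127 kb in the series' list and ran from 19.9 kb around hb (hunchback) to 298 kb around hth (homothorax), which encodes a cofactor of Hox proteins. The genes tin, bap, lbl, lbe, C15 and slou shared a stretch of 235 kb. Likewise ems and E5 shared a stretch of 127 kb, and pnr and srp shared one of 91.7 kb. The 18 genes are therefore not 18 separate observations, and their list was chosen with earlier results of these data known.

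Uncovered gene bodies were not limited to Polycomb targets. All 5 genes on the list named broadly expressed, alphaTub84B, RpS3, RpL32, eEF1alpha2 and Hsc70-4, had no covered base in any list. The name is that of the list, and the expression of these genes was not measured here. The share was 51.4% for all genes of 3R. These 5 genes are short, with a median length of 2.24 kb, and too few to speak for expressed genes as a class. Their stretches were short, with a median of 32.5 kb and a range from 10.5 to 50.5 kb. Over the 2186 genes of 3R without cover in the series' list the median stretch was 31.3 kb. An uncovered stretch over 100 kb held 3 of 3 Bithorax members, 9 of 9 Antennapedia genes, 11 of 19 other targets and 0 of 5 broadly expressed genes. It held 252 of all 4206 genes (5.99%) and 15 of the 216 long genes (6.94%). These shares include the members, and the 2 Hox stretches alone hold 96 of the 252 and 10 of the 15. The genes of 1 stretch share it, so they are not independent.

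**Figure D4:**
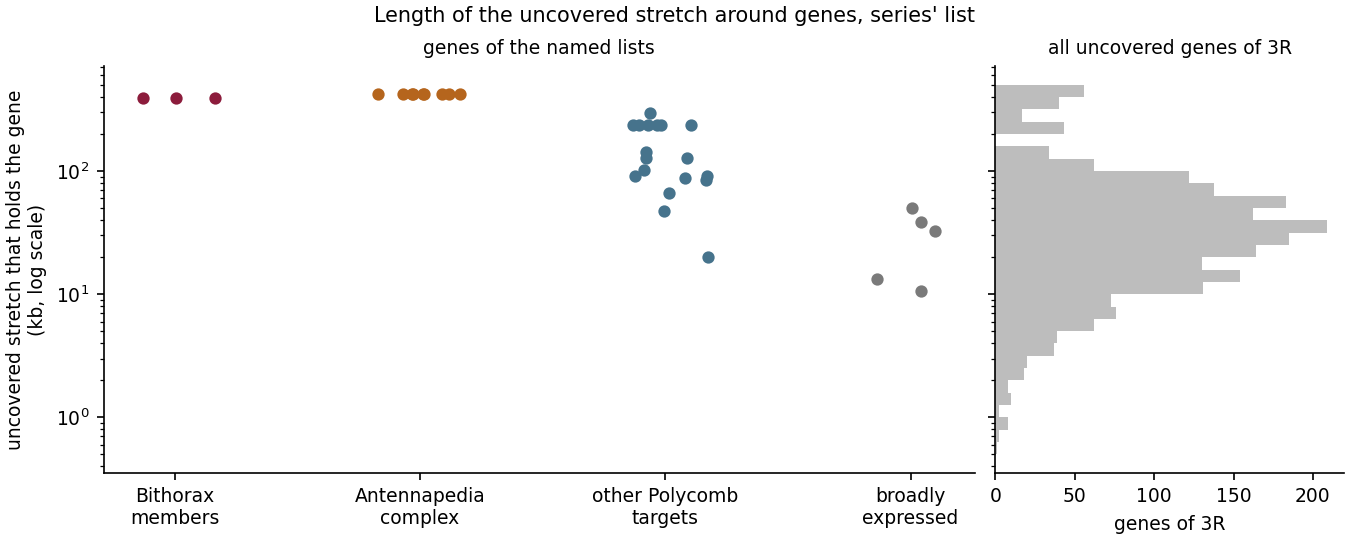
Length in kb (log scale) of the uncovered stretch of the series' list that holds each gene, for the Bithorax members and 3 lists of genes (left panel, 1 point per gene, spread sideways for visibility), and for all genes of 3R without cover as a histogram (right panel). The gene tll of the other Polycomb targets, covered to 100% in this list, lies in no uncovered stretch and has no point. The Bithorax members lie at 388.37 kb and the Antennapedia genes at 418 kb, and the broadly expressed genes lie between 10.5 and 50.5 kb.

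The genes most like the Bithorax members were looked for among genes of 3R outside the window that are at least as long as abd-A and without a covered base in the 3 lists. There were 20 such genes, and likeness was measured by the length of the uncovered stretch of the series' list. The leading ones were Antp (103 kb long), CG46458 (62.1 kb), Scr (26.9 kb) and pb (34.3 kb), all in the stretch of 418 kb. The next was hth (132 kb long) in the stretch of 298 kb.

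The regions that flank the block scored like those of the rest of the arm. In replicate 1 the median score was 0.67 on the side of Ubx (21 regions), 0.64 on the side of Abd-B (20 regions) and 0.64 on the rest of 3R (2168 regions). In replicate 2 it was 0.58 on the side of Ubx (25 regions), 0.59 on the side of Abd-B (32 regions) and 0.60 on the rest of 3R (2193 regions). In the series' list it was 0.43, 0.43 and 0.43 over 36, 52 and 3211 regions. The median over both flanks minus that of the rest of 3R was -0.0041 in replicate 1, -0.021 in replicate 2 and 0.0021 in the series' list, so its direction changed with the list.

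**Figure D5:**
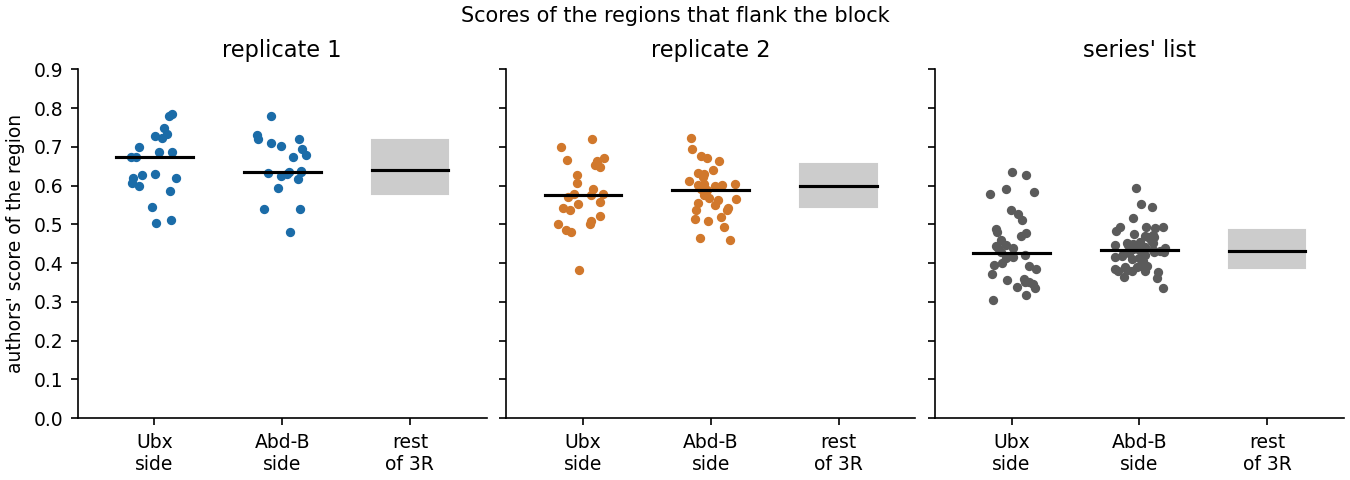
Authors' score of each enriched region of the flanks (points, spread sideways) on the side of Ubx and of Abd-B, with medians as black lines, beside the rest of 3R (grey box from the percentile 25 to the percentile 75, with the median). Each panel is 1 list, and scores are comparable within a panel only. The medians of the flanks lie inside the grey box in each list.

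The replicates agreed on the flanks about as far as on the rest of the arm. Bases covered in both replicates made up a share of 0.379 of the bases covered in either on both flanks (61.2 of 161.6 kb), against 0.371 on the rest of 3R. The share was 0.381 on the side of Ubx and 0.377 on the side of Abd-B. Inside the block of the series' list, replicate 1 had 0 covered bases and replicate 2 had 56, which belong to the region at the edge on the side of Abd-B.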

How the data were processed

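Enriched regions of H3K27me2 ChIP-seq were taken from 3 deposited lists, 1 per ChIP replicate and 1 for the series. Per the file headers, positions are those of FlyBase release 5. The submitters' processing notes name the read aligner Bowtie 0.12.7. How regions were called, at which threshold, and how the list of the series was made is not given in the sources used here. The score that the authors deposited for each region has no stated scale and was used within a list only. Library totals are not in the lists, so depth is unknown and no counting interval was computed.

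Covered bases, uncovered stretches and shares were counted base by base in Python 3.11.15 with NumPy 2.4.6, with code tested on 20 simulated sets of regions. Regions in the window are those that overlap it by at least 1 bp, and they were assigned to a side by their midpoint. Gene names and limits come from the RefSeq table of release 6. They were placed on 3R of release 5 by subtracting the constant of 4174278 bases, and 4206 of 4226 genes fell inside the arm. Distances to genes and covers of genes rest on this constant, which was not checked against the sequence.

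The members, lists and settings were chosen with earlier results of these data known. Named genes are the members, the genes of the block, the 3 genes next to each edge, those in the 3 longest and 3 highest-scoring regions of each flank, 3 lists of genes, and the 5 most alike. One region of a flank is not reported here. With 2 samples of 1 group no test was run. Alternatives were the single lists, regions above the median score, merging within 1 kb, longer regions, wider gene limits and other flank widths.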

Additional observations from a re-analysis of the deposited data

How the results depend on the processing

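No paired analysis was possible because there is 1 group with values: no list belongs to the inputs. The cover of the 3 gene bodies was 0% under each of the 6 alternatives, including gene limits widened by 5 kb. With the nearest region 31.7 kb from Ubx, the score limit, the merging and the wider gene limits could not have changed this. The block measured 388.6 to 388.9 kb in the replicates' lists and, with regions above the median score only, 404.6 kb in the series' list, 505 kb in replicate 1 and 488 kb in replicate 2. The left edge of both replicates also moved outward there. Window cover, 11.1% in the replicates, was 26.3% in the series' list, 5.44% above the median score and 11.6% after merging within 1 kb. Relative to the rest of 3R, both flanks stood at -2.48 percentage points, at -1.002 in the series' list, -1.85 above the median score, -0.553 with 100 kb and 0.199 with 200 kb on each side. The Ubx side stood at -0.974, at -3.32 in the series' list, and turned to 10.7 with 100 kb and 3.401 with 200 kb. The Abd-B side stood at -3.94, turned to 1.24 in the series' list, and was -11.8 with 100 kb. The cause was not tested. The score difference, -0.013, turned to 0.0021 in the series' list. Genes without cover in both replicates numbered 2495 (59.3%) and, among genes at least as long as abd-A, 35 of 216 (16.2%), so that both the number and the share were lower. Unknown depth limits each value, since a bare stretch may hold signal below the authors' threshold.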
